A study of Mus musculus with 11 samples.

Results

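Acetaminophen (paracetamol, APAP) is cleared by the liver mainly by conjugation, and the transcripts measured here are those of 10 genes of that route. They comprised the UDP-glucuronosyltransferases Ugt1a1, Ugt1a6a, Ugt1a9, Ugt2b1, Ugt2b5, Ugt2b34, Ugt2b36 and Ugt2b35, the sulfotransferase Sult1a1, and Ugdh, which makes the sugar donor for glucuronidation. The genes were taken by symbol from the gene table of the files, where all 10 were matched among 31053 genes. They were followed in 11 spatial transcriptomic sections of mouse liver, with 3 uninjured sections at 0 h (replicates 2, 3 and 4) and, after an APAP overdose (labelled POD), 2 sections (A, B) from 24 h, 2 (A, B) from 36 h and 4 (A, B, C, D) from 48 h. The labels give no strain, sex, age or batch. The study's methods describe C57BL/6JCrl mice, adult and male unless stated otherwise, fasted before intraperitoneal APAP, and for spatial data name 1 mouse liver at each time. Sections of a time point may therefore come from 1 animal, a p-value measures section-to-section spread alone, and animal, batch and time cannot be told apart.

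Glucuronidation joins glucuronic acid to a drug, hormone or bile pigment on the inner face of the endoplasmic reticulum, and sulfation joins a sulfate group to similar molecules in the cytosol. In both cases the product is more soluble and leaves the cell through export pumps into bile or blood. At safe doses most APAP leaves the body as these conjugates, and only a small share is oxidised by cytochromes P450, chiefly Cyp2e1, to the reactive quinone imine that binds glutathione and, in overdose, protein. Oxidation is strongest around the central vein, where the overdose kills hepatocytes. The UGT2B genes and Sult1a1 are expressed mainly in hepatocytes.

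The sections held 1490 to 3466 spots that passed the filters and 31292663 to 67045372 unique molecular identifiers (UMIs, counts of captured RNA molecules). Each spot covers several cells, so that fewer hepatocytes and less RNA per hepatocyte cannot be told apart. Hepatocyte markers were abundant throughout. The summed level of the 6 matched hepatocyte markers, all detected in every group, was 109755 to 114754 CPM (UMIs divided by the TMM-scaled section total and multiplied by 1000000) at 0 h and 72897 to 99076 CPM in the injured sections. Markers of other cells moved in different ways. The 4 neutrophil markers summed to 1.98 to 7.86 CPM at 0 h and 20.9 to 136 CPM after injury, and the 7 mesenchymal markers to 249.7 to 286 CPM at 0 h, 198 to 245 CPM at 24 h, 229 to 566 CPM at 36 h and 674 to 1469 CPM at 48 h. The 7 endothelial markers were at 247 to 283 CPM at 0 h and 210.1 to 228 CPM at 24 h. At 36 h they were at 202 to 325 CPM, and at 48 h at 207 to 264 CPM. The 4 mononuclear phagocyte markers summed to 409 to 434 CPM at 0 h and 722 to 1327 CPM at 48 h. The 5 cholangiocyte markers summed to 50.7 to 74.0 CPM at 0 h and 197 to 469 CPM at 48 h. The part of these shifts in the results was not tested.

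What the assay could read of each gene was set by its 3′ end. In the GENCODE M21 models on GRCm38, the UGT1A genes lie nested on chromosome 1 (plus strand), Ugt1a9 from 88070800, Ugt1a6a from 88134809 and Ugt1a1 from 88211959, and each joins its own first coding exon to common exons. To show where they differ, the first 45 coding bases are given 5′ to 3′, with capitals at bases that differ from Ugt1a1 at the same position.
Ugt1a1 first: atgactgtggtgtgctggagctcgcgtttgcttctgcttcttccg
Ugt1a6a first: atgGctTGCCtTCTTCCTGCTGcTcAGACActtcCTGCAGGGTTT
Ugt1a9 first: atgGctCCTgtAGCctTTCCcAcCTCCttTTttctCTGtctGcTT
Of these 45 bases, 33 differed in Ugt1a6a and 24 in Ugt1a9. Over the last 500 transcript bases, every 90-base window of these 3 genes also occurred in 8 other UGT1A genes. The library captures RNA by its poly(A) tail, and counting software keeps only reads that match 1 gene. A read from the common end thus cannot be assigned to 1 UGT1A gene. The levels of Ugt1a1, Ugt1a6a and Ugt1a9 given here leave out such reads and are uncertain.

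The UGT2B members are separate genes on chromosome 5, from Ugt2b34 at 86889767 to 86906937 (minus strand) through Ugt2b1, Ugt2b35 (plus strand) and Ugt2b36 to Ugt2b5 at 87124960 to 87140318. None of their last 500 bases held a 90-base window found in another gene. To show how alike or unlike they are, their last 45 coding bases are given, with capitals at bases that differ from Ugt2b5.
Ugt2b5 last: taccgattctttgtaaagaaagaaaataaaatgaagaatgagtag
Ugt2b36 last: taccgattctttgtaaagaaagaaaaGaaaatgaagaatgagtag
Ugt2b35 last: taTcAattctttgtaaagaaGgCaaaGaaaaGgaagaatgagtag
Ugt2b34 last: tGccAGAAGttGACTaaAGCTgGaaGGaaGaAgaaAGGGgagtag
Ugt2b1 last: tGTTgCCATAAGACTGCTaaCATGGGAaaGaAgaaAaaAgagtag
Ugt2b36 was closest, with 1 differing base here and 88.4% identity over the whole coding sequence, whereas Ugt2b1 differed at 27 of 45. Sult1a1 (chromosome 7, 126672865 to 126676432, minus strand) and Ugdh (chromosome 5, 65413221 to 65435949, minus strand) likewise shared no such window.

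Comparison of each time after APAP with 0 h asked how the conjugation genes changed during injury and regeneration. All 5 UGT2B members fell at 24 h and 36 h, and all but Ugt2b35 at 48 h, whereas no change of Sult1a1 or Ugdh was called. With edgeR's quasi-likelihood test and Benjamini-Hochberg adjustment over 14821 genes, 5 of the 9 members tested were lower at 24 h, 6 at 36 h and 5 at 48 h, and 0 were higher. Of all genes tested, 41.7% changed at 24 h (23.1% higher, 18.6% lower), 29.2% at 36 h (16.8% higher, 12.4% lower) and 44.2% at 48 h (23.3% higher, 20.9% lower). The balance depends on the scaling: of the genes called, 55.4%, 57.5% and 52.7% were higher here, and 80.4%, 94.1% and 93.7% with total-count scaling. The median log2 fold change of the tested members was -0.97, -0.96 and -0.85 at the 3 times, against 0.05, 0.05 and 0.01 over all genes. The 3 comparisons share the 0 h sections.

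**Figure D1:**
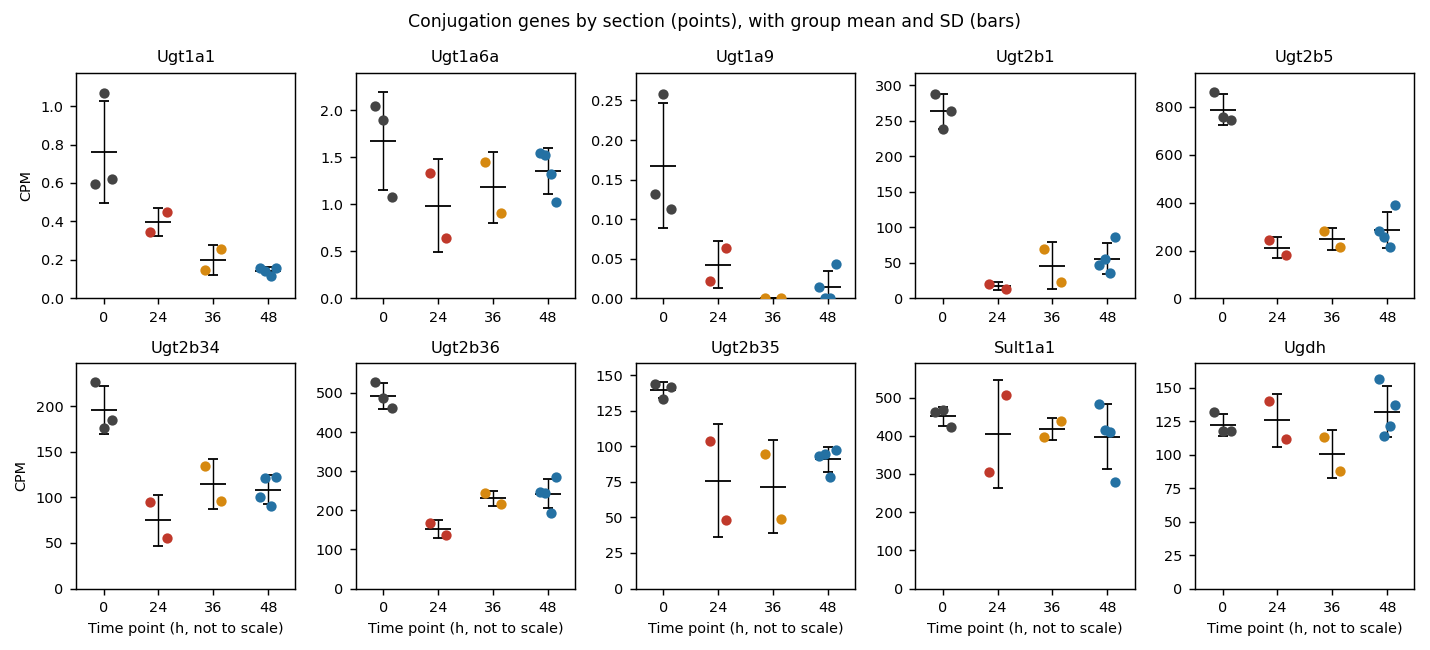
CPM of each member (vertical axes from 0, own scale per gene) by time point, where points are sections and black bars give the mean and SD (n = 3, 2, 2 and 4). The UGT2B sections after APAP all lie below those at 0 h. Sult1a1 sections of injured and uninjured liver intermingle at each time, and those of Ugdh at 24 h and 48 h but not at 36 h. The share of all genes with such a separation was not counted.

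Ugt2b1, a glucuronosyltransferase of hepatocytes, had the largest log2 change of the tested members at 24 h and 36 h. It was measured at 288, 238 and 264 CPM in the uninjured sections (values here and below follow the order 2, 3, 4 or A to D), at 20.9 and 12.8 CPM after 24 h, at 69.6 and 22.5 CPM after 36 h, and at 46.4, 55.3, 35.0 and 86.3 CPM after 48 h. All 8 injured sections lay below all 3 uninjured ones, and 36 h A and 48 h D were the highest of the injured sections. How many of all genes separate in this way was not counted, here and below. The mean of 263 ± 24.9 CPM (SD, n = 3) at 0 h compared with 16.8 ± 5.70 CPM (n = 2) at 24 h, 6.40% of the starting level. The log2 fold changes of Ugt2b1 at 24 h, 36 h and 48 h were -3.96 ± 0.55 (SE), -2.51 ± 0.50 and -2.24 ± 0.38, with adjusted p of 0.00043, 0.006 and 0.0012.

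Ugt2b5 and Ugt2b36, the close pair shown above, also fell at all 3 times. Ugt2b5 stood at 862, 760.1 and 747 CPM at 0 h, 242 and 181 CPM at 24 h, 280.5 and 214 CPM at 36 h, and 283, 256, 216 and 389 CPM at 48 h. Its highest injured value, in 48 h D, was still below its lowest at 0 h. The log2 fold changes of Ugt2b5 were -1.90 ± 0.25 (SE), -1.67 ± 0.24 and -1.47 ± 0.19, with adjusted p of 0.00024, 0.0013 and 0.00022.

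Ugt2b36 was measured at 528, 488 and 462 CPM at 0 h, 168 and 136 CPM at 24 h, 244 and 217 CPM at 36 h, and 247, 244, 194 and 284 CPM at 48 h. The groups did not overlap with 0 h, and the sections at 24 h were below all later ones. Its log2 fold changes were -1.70 ± 0.17 (SE), -1.09 ± 0.17 and -1.02 ± 0.13, with adjusted p of 6.7e-05, 0.0015 and 0.00021.

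Ugt2b34 and Ugt2b35 showed smaller falls. Ugt2b34 moved from 226, 176 and 185 CPM at 0 h to 94.9 and 55.1 CPM at 24 h, 135 and 95.6 CPM at 36 h, and 100.2, 121, 90.3 and 122 CPM at 48 h. Its log2 fold changes were -1.39 (SE 0.25, adjusted p = 0.0015), -0.77 (SE 0.24, adjusted p = 0.037) and -0.85 (SE 0.20, adjusted p = 0.0055). Under total-count scaling, which places the median gene 0.37 to 0.54 above 0 h on the log2 scale, the falls of Ugt2b34 at 36 h and 48 h were not called (adjusted p = 0.29 and 0.18), and that at 36 h was also lost without any 0 h section or 36 h B (adjusted p = 0.055 to 0.21).

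Ugt2b35 was at 144, 133 and 142 CPM at 0 h, 104 and 47.9 CPM at 24 h, 94.6 and 48.7 CPM at 36 h, and 93.5, 94.4, 78.1 and 97.7 CPM at 48 h. The groups did not overlap with 0 h, but section A exceeded section B by a wide margin at both 24 h and 36 h. Its log2 fold changes were -0.88 (SE 0.32, adjusted p = 0.049), -0.96 (SE 0.32, adjusted p = 0.046) and -0.62 (SE 0.26, adjusted p = 0.076). The calls for Ugt2b35 at 24 h and 36 h lay at the threshold and were lost with total-count scaling (adjusted p = 0.19 and 0.21) and without an expression filter (adjusted p = 0.063 and 0.065). They were also lost when 24 h B or 36 h B was left out (adjusted p = 0.31 at 24 h and 0.26 at 36 h), or any section at 0 h or 48 h (adjusted p = 0.056 to 0.097). Conversely, the fall at 48 h was called with DESeq2 (adjusted p = 0.049), with the 0 h and 48 h sections fitted alone (adjusted p = 0.0007) and without any of the 24 h or 36 h sections (adjusted p = 0.024 to 0.036).

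Sult1a1, the main phenol sulfotransferase of liver and the enzyme that sulfates APAP, was not called at any time. It was measured at 463, 467 and 423 CPM at 0 h, 305 and 506 CPM at 24 h, 397 and 439 CPM at 36 h, and 483, 415, 410.3 and 280.2 CPM at 48 h. Sections overlapped between all groups, with 24 h A and 48 h D low and 24 h B the highest of all. The log2 fold changes of Sult1a1 were -0.15 (SE 0.23, adjusted p = 0.63), -0.11 (SE 0.23, adjusted p = 0.75) and -0.18 (SE 0.20, adjusted p = 0.47), and with total-count scaling their sign turned to 0.17, 0.33 and 0.34, again without a call.

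Ugdh, the dehydrogenase that oxidises UDP-glucose to UDP-glucuronate, stood at 132, 117 and 118 CPM at 0 h, 139.9 and 112 CPM at 24 h, 113 and 88.1 CPM at 36 h, and 157, 114, 121 and 137 CPM at 48 h. The 2 sections at 36 h lay below those at 0 h, and the other times overlapped with 0 h. Its log2 fold changes were 0.04 (SE 0.17, adjusted p = 0.87), -0.28 (SE 0.17, adjusted p = 0.23) and 0.11 (SE 0.14, adjusted p = 0.54). With total-count scaling Ugdh was called higher at 48 h, by 0.64 on the log2 scale (adjusted p = 0.0032), where the median gene was 0.54 higher.

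The contrast between Sult1a1 and the 5 UGT2B members could be read within a section, where no scaling enters. For every 100 UMIs of the 5 UGT2B members there were 22.6, 26.0 and 23.5 UMIs of Sult1a1 in the 0 h sections, 48.4 and 117 at 24 h, 48.2 and 73.4 at 36 h, and 62.8, 53.8, 66.9 and 28.6 at 48 h. All 8 injured sections were above the 3 at 0 h, with 48 h D nearest to them. Among the UGT2B members the proportions also shifted. For every 100 UMIs of Ugt2b36 there were 54.4, 48.8 and 57.1 of Ugt2b1 at 0 h, 12.4 and 9.42 at 24 h, 28.5 and 10.4 at 36 h, and 18.8, 22.7, 18.1 and 30.4 at 48 h. Again no injured section reached the range at 0 h. These ratios are given as descriptions. For comparison, the 5 UGT2B members together took 1795 to 2048 CPM at 0 h, 433 to 629.7 at 24 h, 598 to 823 at 36 h and 613 to 979 at 48 h.

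**Figure D2:**
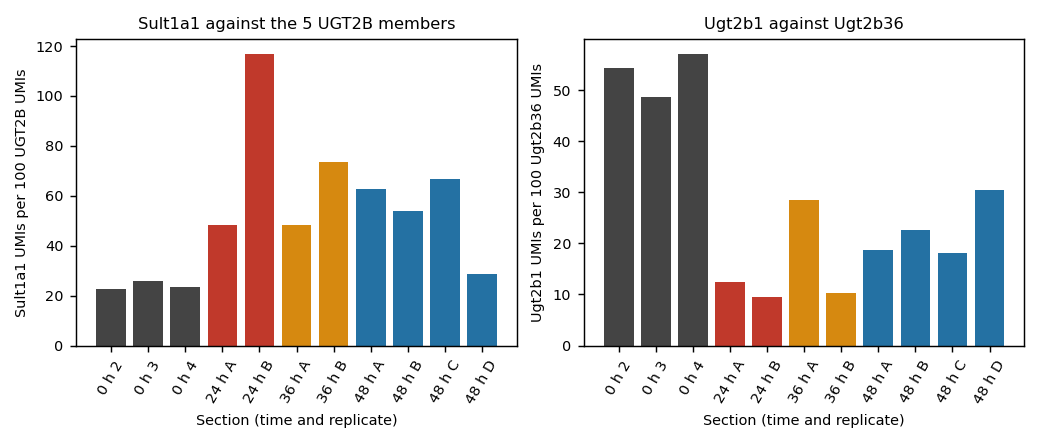
Bars give, for each of the 11 sections, UMIs of Sult1a1 per 100 UMIs of the 5 UGT2B members (left) and UMIs of Ugt2b1 per 100 UMIs of Ugt2b36 (right), with both axes from 0. Sections at 0 h have the lowest bars on the left (22.6 to 26.0) and the highest on the right (48.8 to 57.1).

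Spots below the lowest 1% of 0 h spots in hepatocyte transcripts made up 0.344% to 3.41% of kept spots in 10 sections and 6.66% in 48 h C. At 48 h, where the most such spots lay, the log2 fold changes without them were -2.18 for Ugt2b1, -1.41 for Ugt2b5, -0.97 for Ugt2b36, -0.80 for Ugt2b34 and -0.57 for Ugt2b35, with the same 4 UGT2B members called. At 24 h and 36 h, where at most 0.992% of spots were removed, this comparison says little.

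The UGT1A members gave few assigned UMIs. Because reads from their common 3′ end could not be assigned to 1 gene, these counts do not show how strongly the genes were expressed. Ugt1a1, the bilirubin glucuronosyltransferase, gave 27, 58 and 22 UMIs in the 0 h sections, 16 and 14 at 24 h, 5 and 9 at 36 h, and 11, 7, 8 and 11 at 48 h. Its fall was called for 36 h (log2 fold change -1.92, SE 0.43, adjusted p = 0.0085) and for 48 h (-2.40, SE 0.32, adjusted p = 0.00026), not for 24 h (-0.97, SE 0.38, adjusted p = 0.065). The injured sections, at 0.115 to 0.447 CPM, did not overlap with 0 h (0.594 to 1.07 CPM), and each value rests on at most 58 assigned UMIs.

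Ugt1a6a, a glucuronosyltransferase of small phenols such as APAP, was at 2.05, 1.90 and 1.07 CPM at 0 h, 1.33 and 0.638 CPM at 24 h, 1.45 and 0.913 CPM at 36 h, and 1.55, 1.53, 1.32 and 1.03 CPM at 48 h. These ranges overlapped at every time and no change was called (adjusted p = 0.15, 0.34 and 0.43). Ugt1a9, also a phenol glucuronosyltransferase, gave 6, 14 and 4 UMIs at 0 h, 1 and 2 at 24 h, 0 and 0 at 36 h, and 1, 0, 0 and 3 at 48 h. It did not pass the expression filter, and without that filter, or with DESeq2, it was called lower at 36 h and 48 h. A count of 0 in the 36 h sections allows up to 3 UMIs, or 0.0869 and 0.0856 CPM, with counting error only considered. The 0.113 to 0.258 CPM at 0 h rest on 4 to 14 UMIs, whose counting error was not applied. The bound therefore does not set the times apart. Among the other UGT1A genes Ugt1a7c gave the most UMIs, 80 to 204 per section at 0 h.

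From 24 h to 36 h only Ugt2b36 was called among the members, higher by 0.60 on the log2 scale (SE 0.18, adjusted p = 0.043), against 15.6% of all genes (7.04% higher, 8.58% lower). This call lay at the threshold and was lost when the 24 h and 36 h sections were fitted alone (adjusted p = 0.21) and when any of 24 h A, 24 h B, 36 h A, 36 h B, the 0 h sections, 48 h A or 48 h B was left out (adjusted p = 0.052 to 0.21). Ugt2b1, called with DESeq2 (adjusted p = 0.016), was at 1.45 (SE 0.51, adjusted p = 0.081) and Ugt2b34 at 0.62 (SE 0.26, adjusted p = 0.13) on the same scale. From 36 h to 48 h none of the 9 members was called by edgeR or DESeq2, against 3.05% of all genes (1.62% higher, 1.43% lower), and 1 of them, Ugdh, had an unadjusted p under 0.05. At 48 h the group means were 21.2% of the 0 h level for Ugt2b1, 36.2% for Ugt2b5, 49.2% for Ugt2b36, 55.4% for Ugt2b34 and 65.1% for Ugt2b35.

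The zones of the uninjured lobule were compared to ask where conjugation transcripts lie relative to the site of APAP oxidation. Spots of each 0 h section were ranked by a zonation score built from central and portal gene lists that hold none of the 10 members, and divided into 5 equal classes, of which class 1 is periportal and class 5 pericentral. The classes held 387 to 538 spots each. Against the periportal class, 5 of the 8 members tested were higher in the pericentral class and 2 were lower, compared with 12.8% and 13.3% of 11893 genes (26.2% in all). The differences were small beside that of Cyp2e1, which belongs to the score and rose 4.78-fold from class 1 to class 5.

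**Figure D3:**
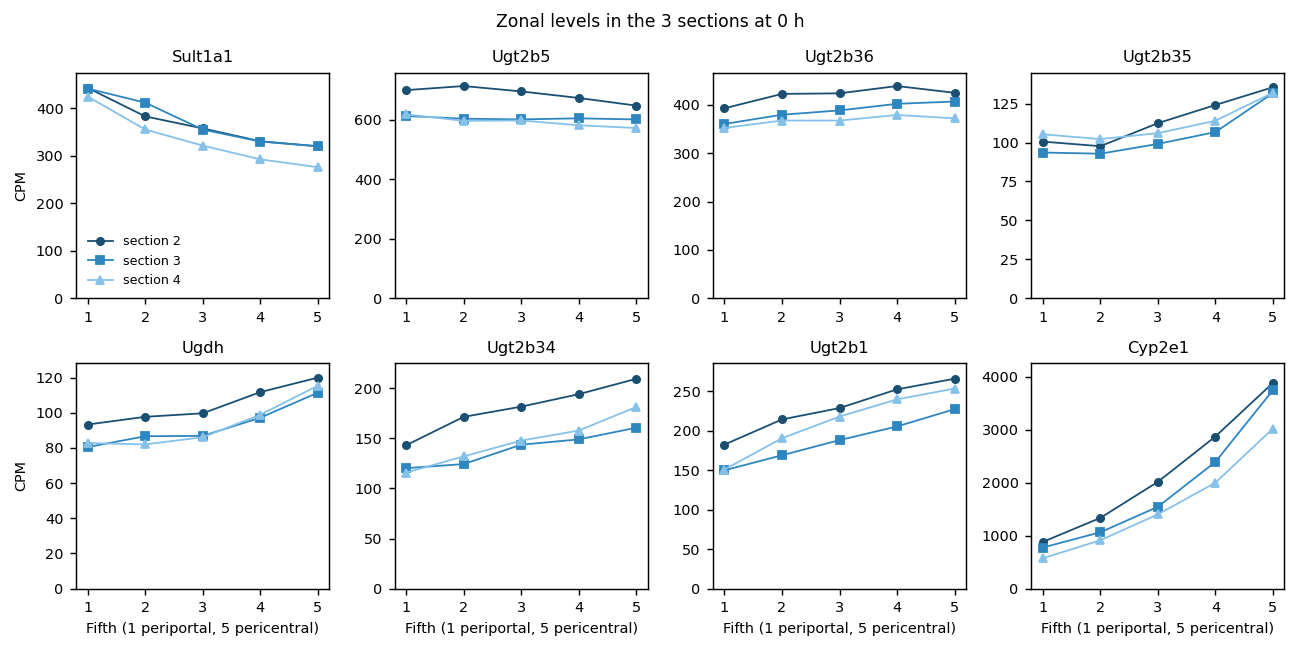
CPM (vertical axes from 0, own scale per gene) of 7 members and Cyp2e1 in 5 equal classes of spots from periportal (1) to pericentral (5), with 1 line for each of the 3 sections at 0 h. Sult1a1 declines towards the central vein in all 3 sections, Ugt2b1, Ugt2b34, Ugt2b35 and Ugdh rise, and Ugt2b5 and Ugt2b36 run nearly level.

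Ugt2b1 rose towards the central vein in each section, from 182 to 266 CPM in section 2, from 149.8 to 227 CPM in section 3 and from 151 to 253 CPM in section 4. Every step from class to class was upward in all 3 sections. The log2 difference between the outermost classes was 0.62 (SE 0.03, adjusted p = 3.5e-33). Ugt2b34 rose in the same way, from 143 to 209.6, from 120.3 to 161 and from 116 to 181 CPM (log2 difference 0.53, SE 0.03, adjusted p = 7.1e-27).

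Ugt2b35 and Ugdh were pericentral too, but with most of the rise in the last classes. Ugt2b35 was at 99.8, 97.6, 106, 115 and 133 CPM on average in classes 1 to 5, and Ugdh at 85.6, 88.8, 90.9, 103 and 116 CPM. Their log2 differences were 0.42 (SE 0.04, adjusted p = 2.2e-18) and 0.43 (SE 0.04, adjusted p = 2.4e-18). In each of the 3 sections the pericentral class was 1.25 to 1.41 times the periportal one for Ugt2b35 and 1.29 to 1.39 times for Ugdh.

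Sult1a1 was the periportal member. It fell from 443 to 320.2 CPM in section 2, from 442 to 320.3 CPM in section 3 and from 425 to 276 CPM in section 4, a 1.43-fold difference of the means (log2 difference -0.51, SE 0.03, adjusted p = 6e-33). Its gradient therefore ran against those of Ugt2b1, Ugt2b34, Ugt2b35 and Ugdh. The summed level of the hepatocyte markers also declined towards the central vein, from 97340 to 100288 CPM in class 1 to 70576 to 73386 CPM in class 5. This did not hold for every marker of the list. Mean Hnf4a was 137 CPM in class 1 and 134 CPM in class 5, and mean Cyp2e1 rose from 742 to 3547 CPM. The sum therefore does not measure hepatocyte content alone, and its part in the fall of Sult1a1 was not tested.

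Ugt2b5 and Ugt2b36 were nearly even across the lobule, although both passed the test. Ugt2b36 was 1.06 to 1.13 times as high in the pericentral as in the periportal class (log2 difference 0.12, SE 0.02, adjusted p = 1.8e-05). Ugt2b5 was 0.926 to 0.981 times as high (log2 difference -0.08, SE 0.02, adjusted p = 0.0029), and this call was lost with DESeq2 (adjusted p = 0.086), with total-count scaling (adjusted p = 0.72) and without section 2 (adjusted p = 0.11) or section 4 (adjusted p = 0.072). Ugt1a6a showed no difference that could be detected with 32 to 63 UMIs per class over the 3 sections (log2 difference 0.24, SE 0.30, adjusted p = 0.64). Ugt1a1 and Ugt1a9 were too sparse to be tested by zone.

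Because pericentral hepatocytes are lost after APAP, the change over time was next followed in portal-rich spots, the 1 in 3 spots of each section with the highest portal score, and in the remaining spots. These classes are ranks within each section and need not mark the same zone after injury. The central gene list summed to 28560 to 33718 CPM in portal-rich and 43428 to 50335 CPM in other spots at 0 h. At 48 h it was at 15281 to 20305 and 12876 to 17288.5 CPM. The 5 cholangiocyte markers were at 87.1 to 118.6 and 27.8 to 47.7 CPM at 0 h. At 48 h they were at 128.5 to 371.2 and 221 to 511.2 CPM. Mean Cyp2e1 stayed lower in portal-rich spots at 48 h (371 against 588 CPM). In portal-rich spots 6 of 8 members tested were lower at 24 h than at 0 h, 3 at 36 h and 3 at 48 h. Of 13266 genes, 31.4%, 12.9% and 18.6% changed (17.3%, 6.56% and 10.1% higher, and 14.1%, 6.35% and 8.47% lower). Ugt2b1, Ugt2b5 and Ugt2b36 were the 3 members called at all 3 times.

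In portal-rich spots Ugt2b1 was at 236, 195 and 211 CPM at 0 h, 19.1 and 12.7 CPM at 24 h, 79.9 and 26.4 CPM at 36 h, and 60.3, 71.3, 48.5 and 111 CPM at 48 h. No injured section reached the range at 0 h. The log2 fold changes were -3.72 (SE 0.53, adjusted p = 0.001), -2.01 (SE 0.48, adjusted p = 0.027) and -1.55 (SE 0.37, adjusted p = 0.019). The call for Ugt2b1 at 36 h was lost without 36 h B or any 0 h section (adjusted p = 0.062 to 0.082), and that at 48 h without any 0 h section (adjusted p = 0.054 to 0.066).

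Ugt2b5 changed in portal-rich spots by -1.74, -1.47 and -1.07 on the log2 scale (adjusted p = 0.00031, 0.0034 and 0.0023), and Ugt2b36 by -1.42, -0.83 and -0.57 (adjusted p = 0.0001, 0.007 and 0.0087). The fall of Ugt2b36 at 48 h was lost with total-count scaling (adjusted p = 0.15) and without 0 h section 2 (adjusted p = 0.054). Ugt2b34 and Ugt2b35 were called at 24 h only (-1.50, adjusted p = 0.00078, and -1.01, adjusted p = 0.025), the latter not with total-count scaling (adjusted p = 0.071) nor without any 0 h section or 24 h B (adjusted p = 0.052 to 0.17). Ugt1a6a was at -1.70 at 24 h (SE 0.60, adjusted p = 0.047), a call lost with total-count scaling (adjusted p = 0.066), without 24 h A (adjusted p = 0.35) and without 0 h section 2 or 3 or 48 h section A, B or C (adjusted p = 0.057 to 0.14). Sult1a1 lay between 0.01 and 0.08 on the log2 scale at the 3 times with no call, and Ugdh at -0.44, -0.47 and 0.01 with none.

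Whether a change differed between portal-rich and other spots was tested by the interaction of time and spot class, with the section as a block. At 24 h it passed for 5 of 9 members, at 36 h for 7 and at 48 h for 7, against 14.6% (9.06% higher, 5.53% lower), 14.2% (9.21% and 5.01%) and 37.4% (21.2% and 16.2%) of 14144 genes. These counts fell to 3 at 24 h without 0 h section 2 or 3 or either 24 h section. At 36 h they fell to 3 without 36 h A and to 4 without 0 h section 2 or 3. In these fits 905 to 1487 of all genes were called at 24 h and 1330 to 1450 at 36 h. At 48 h the 7 members were higher in portal-rich relative to other spots than at 0 h, against 21.2% of genes in that direction. With total-count scaling the background turned over, so that 12.9%, 17.8% and 16.9% of called genes were higher at the 3 times against 62.1%, 64.7% and 56.8% here, while the 5 UGT2B members and Ugt1a6a were still called higher at 48 h. Over the same spots the hepatocyte markers summed to 117474 to 123092 CPM in portal-rich and 100891 to 105760 CPM in other spots at 0 h, and to 94184 to 114467 and 61950 to 76824 CPM at 48 h, while the mesenchymal markers reached 784 to 1758 CPM in the other spots at 48 h. The part of these shifts in the interactions was not tested.

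**Figure D4:**
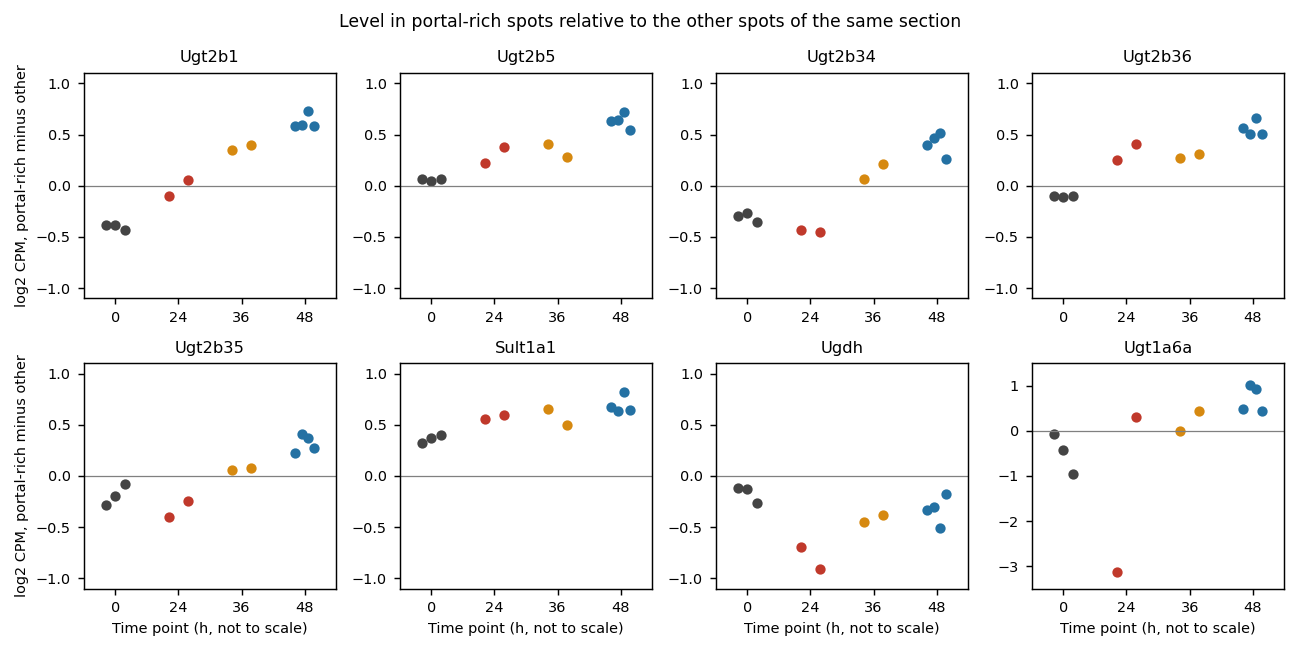
Log2 ratio of CPM in portal-rich spots to that in the other spots of the same section for 8 members, where each point is a section and the line at 0 marks equal levels (Ugt1a6a has a wider axis). Ugt2b1, Ugt2b34, Ugt2b35 and Ugt2b36 lie below 0 in the 3 sections at 0 h and above 0 in the 4 sections at 48 h, whereas Ugdh stays below 0 in all 11.

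The spot class, portal-rich or other, in which Ugt2b1 was higher turned over with time. Its log2 ratio of portal-rich to other spots was -0.38, -0.39 and -0.43 in the 0 h sections, -0.10 and 0.06 at 24 h, 0.35 and 0.40 at 36 h, and 0.58, 0.59, 0.74 and 0.59 at 48 h. No value at 24 h, 36 h or 48 h overlapped with 0 h. The differences in log2 change were 0.35 ± 0.10 (SE), 0.77 ± 0.08 and 1.02 ± 0.05 at the 3 times, with adjusted p of 0.01, 3.7e-08 and 1.6e-15; the first was lost without 24 h A or B (adjusted p = 0.06 and 0.14). In the other spots the mean went from 282 ± 26.3 CPM (SD, n = 3) to 47.7 ± 19.2 CPM (n = 4) at 48 h.

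At 48 h the interaction was 0.71 for Ugt2b34 (SE 0.06, adjusted p = 1.1e-11), 0.66 for Ugt2b36 (SE 0.05, adjusted p = 5.9e-12), 0.57 for Ugt2b5 (SE 0.05, adjusted p = 1e-10) and 0.51 for Ugt2b35 (SE 0.06, adjusted p = 1.6e-08). Ugt2b34 and Ugt2b35 had ratios of -0.45 to -0.24 in the sections at 24 h and turned above 0 only in those at 36 h and 48 h. Sult1a1 was higher in portal-rich spots in all 11 sections, with ratios of 0.32, 0.37 and 0.40 at 0 h and 0.64 to 0.82 at 48 h. Its interaction of 0.33 at 48 h (SE 0.05, adjusted p = 4.8e-06) was lost with total-count scaling (0.07, adjusted p = 0.27), as were those of 0.21 at 24 h and at 36 h (adjusted p = 0.81 and 0.73). Ugt1a6a, sparse in both classes, was at 1.08 (SE 0.31, adjusted p = 0.00565) at 48 h, and not called when the portal-rich class was narrowed to the 1 in 5 spots with the highest score (0.77, adjusted p = 0.056).

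Ugdh went the other way. Its ratio was -0.12, -0.12 and -0.27 at 0 h and -0.70 and -0.91 at 24 h, with means at 24 h of 80.4 ± 19.3 CPM (n = 2) in portal-rich and 139 ± 19.1 CPM in other spots. The interaction was -0.62 ± 0.08 (SE), -0.25 ± 0.08 and -0.16 ± 0.07 at the 3 times, with adjusted p of 5.6e-06, 0.049 and 0.059. That at 36 h was lost without 0 h section 2 or 3, 36 h A or B, or 48 h A or B (adjusted p = 0.055 to 0.29), whereas that at 48 h was called with total-count scaling (-0.42, adjusted p = 6.7e-05) and without 0 h section 4, 24 h B or 48 h D (adjusted p = 0.0043 to 0.0498). Ugdh was thus called lower in portal-rich relative to other spots at 24 h, although neither the whole sections nor portal-rich spots alone showed a called change.

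Around the members, the other genes of the pathway were followed as lists. Their counts stand against 41.7%, 29.2% and 44.2% of all genes called at 24 h, 36 h and 48 h. At these times 18.6%, 12.4% and 20.9% of all genes were lower, and 23.1%, 16.8% and 23.3% higher. Of 6 further UGT genes tested (of 13 listed) 4 were lower at 24 h, 3 at 36 h and 5 at 48 h, with 0 higher and median log2 fold changes of -1.98, -1.53 and -1.28. They include Ugt1a7c, which shares the UGT1A 3′ end. Ugt2a3, Ugt3a1 and Ugt3a2, enzymes of the same superfamily, fell at all 3 times, although with total-count scaling Ugt2a3 was not called at 36 h and 48 h nor Ugt3a2 at 48 h. Ugt3a1 changed by -2.54 (SE 0.26), -2.07 (SE 0.25) and -2.01 (SE 0.20) on the log2 scale. The relative of the UGT2B members Ugt2b38 was periportal at 0 h, with a log2 difference between the outermost classes of -2.04 (SE 0.10, adjusted p = 7e-33), and was called lower at 48 h.

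**Figure D5:**
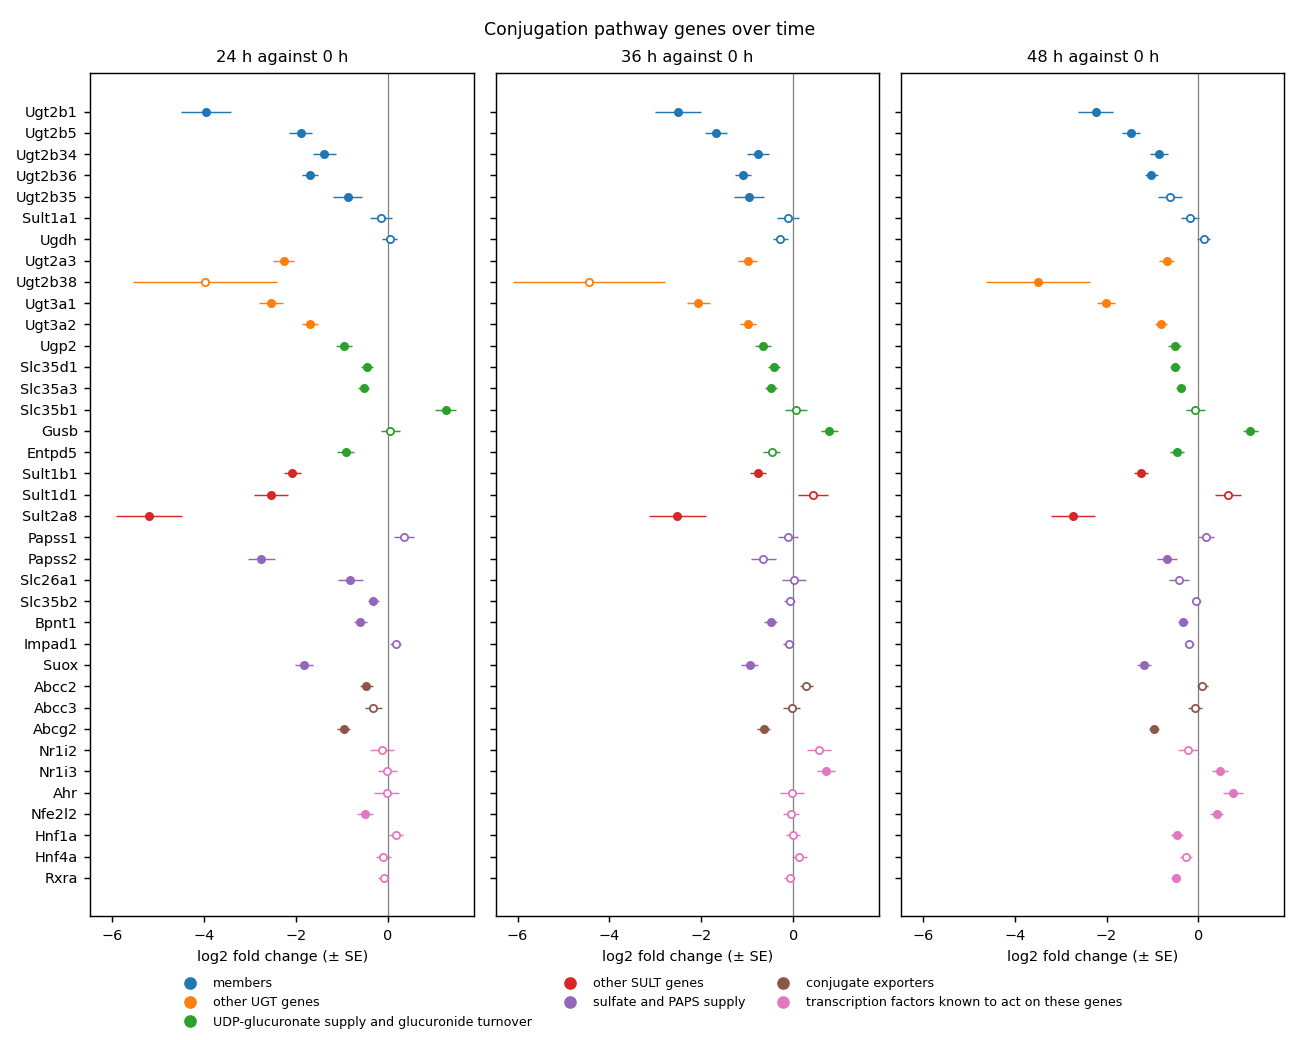
Log2 fold change against 0 h (horizontal axes, bars ± SE) of 37 conjugation pathway genes, 7 of them members, that reached a mean of 10 CPM in some group, coloured by list, with filled circles for genes called at an adjusted p under 0.05. Most UGT circles lie left of 0 at each time, whereas those of Sult1a1 and Ugdh are open and lie near it.

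For the donor and turnover of glucuronides, 6 genes were tested. Ugp2, which makes UDP-glucose, was lower at all 3 times (-0.96, -0.66 and -0.52), as were the nucleotide sugar transporters Slc35d1 and Slc35a3. With total-count scaling the fall of Ugp2 was called at 24 h alone, and those of both transporters at no time. Slc35b1, a nucleotide transporter of the endoplasmic reticulum, was higher at 24 h alone (1.26, SE 0.24, adjusted p = 0.0019). Gusb, the lysosomal enzyme that splits glucuronides, was higher at 36 h (0.79) and 48 h (1.13), and at 0 h it was periportal (-0.55).

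Sulfation genes other than Sult1a1 mostly fell at 24 h, when 6 of 8 tested (of 19 listed) were lower and 0 higher. Sult2a8, a bile acid sulfotransferase, was at -5.20 (SE 0.73), Sult1d1 at -2.54 (SE 0.37) and Sult1b1 at -2.08 (SE 0.19). At 36 h and 48 h, 2 and 4 were lower. The 1 higher gene at both times was Sult1e1, the oestrogen sulfotransferase, named after its values were seen. It was sparse at 0 h, at 0.022 to 0.169 CPM from 10 UMIs over the 3 sections. The 36 h sections were far apart, at 0.203 and 4.11 CPM, and those at 48 h lay at 0.881 to 6.945 CPM. Between 24 h and 36 h Sult1d1 rose by 2.98 (SE 0.40, adjusted p = 0.0037) and Sult2a8 by 2.68 (SE 0.66, adjusted p = 0.027). Fitted on the 24 h and 36 h sections alone, where 1 of 13747 genes was called, neither call held (adjusted p = 0.14 and 0.19), and that of Sult2a8 was also lost without 24 h B or 36 h A (adjusted p = 0.11 for each) and without an expression filter (adjusted p = 0.063).

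Of 9 genes for sulfate and the sulfate donor PAPS, 6 were lower and 1 higher at 24 h. With total-count scaling in edgeR, the 24 h falls of Slc26a1 (adjusted p = 0.16) and Bpnt1 (adjusted p = 0.11) were not called, whereas those of Papss2 and Suox were. Papss2, a PAPS synthase, changed by -2.75 (SE 0.30, adjusted p = 0.00011) at 24 h and rose by 2.10 (SE 0.31, adjusted p = 0.0044) between 24 h and 36 h, a call likewise lost with those sections alone (adjusted p = 0.14). Papss1, the other synthase, was not called at any time (0.35, -0.12 and 0.17). Suox, the mitochondrial sulfite oxidase that yields sulfate, was lower at all 3 times (-1.83, -0.94 and -1.19).

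Of 4 conjugate exporters, Abcg2 was lower at all 3 times (-0.96, -0.64 and -0.97), Abcc2, the pump for conjugates into bile, was lower at 24 h only (-0.47, SE 0.14), and Abcc4 was higher at all 3. With total-count scaling Abcg2 was not called at 36 h, and Abcc2 was not called at 24 h but higher at 36 h and 48 h. Abcc2, Abcc3 and Abcg2 were pericentral at 0 h (0.62, 0.48 and 0.56). Of 8 transcription factors known to act on such genes, 2 were lower at 24 h and 1 was higher at 36 h. At 48 h 3 were higher and 3 lower. Of all genes, 41.7%, 29.2% and 44.2% were called at these times. With total-count scaling in edgeR, neither Nfe2l2 at 24 h (-0.17, adjusted p = 0.46) nor Rxra at 48 h (0.03, adjusted p = 0.77) was called lower. Ahr, Nfe2l2 and Nr1i3 stayed called higher at 48 h. Nr1i3 (CAR) was not called at 24 h (-0.01) and was higher at 36 h (0.71, SE 0.20, adjusted p = 0.023) and 48 h (0.48, SE 0.17, adjusted p = 0.042).

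The members' profiles over the 11 sections were compared as a description, over log2 CPM and 7093 genes with a mean of at least 10 CPM. The correlation between pairs of the 5 UGT2B members was 0.80 to 0.98, whereas Sult1a1 lay between -0.18 and 0.15 with each of them. The sections share groups and scaling, and among the 8 injured sections alone the UGT2B pairs were at 0.53 to 0.92 and Sult1a1 at -0.65 to -0.32 with each UGT2B member. Outside the members, Cyp2f2, a periportal P450, was most like both Ugt2b1 (r = 0.99) and Ugt2b36 (r = 0.99), followed for Ugt2b1 by Cyp4v3 and Ces2a and for Ugt2b36 by Ttr and Cyp2j6. Lipc, Mpc2 and Cyb5b were nearest to Ugt2b5 (0.98 to 0.99), Car3, Cyp4f14 and Sult2a8 to Ugt2b34 (0.98), and Aldh1a7, Gm48633 and Tlcd2 to Ugt2b35 (0.95 to 0.96). The nearest genes were less close for Sult1a1, namely Blcap, Slc20a2 and Pls3 (0.83 to 0.89), and for Ugdh, namely Foxa2, Tpp2 and Nelfb (0.72 to 0.81).

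Among genes of APAP oxidation, Cyp2e1 changed by -2.82 (SE 0.23) at 24 h, -1.95 (SE 0.22) at 36 h and -2.19 (SE 0.17) at 48 h. Cyp1a2 was at -2.61 (SE 0.72) at 24 h and at -0.55 (SE 0.54, adjusted p = 0.43) at 48 h. Differences between these changes and those of the members were not tested.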

How the data were processed

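The Visium libraries were processed by the authors with Space Ranger 1.0.0 on mm10, with gene models of Ensembl 93, and the deposited matrices hold raw UMI counts per spot with no normalisation. Seurat 4.1.1 is also named in the submitters' processing notes. Spots under the authors' tissue mask were retained at 800 or more genes and no more than 20% mitochondrial UMIs, and counts were summed per section, zone class or portal class. Zone and portal scores were taken after thinning each spot to 2000 UMIs. Sums were fitted with edgeR 4.0.16 in R 4.3.3 (filterByExpr, TMM scaling, robust quasi-likelihood, two-sided, adjusted p under 0.05), with a section block for zones and interactions. All 11 sections entered a fit, or the 3 at 0 h for zones. Steps were tested on simulated data. DESeq2, other scalings, filters, spot sets and omission of each section were the alternatives. Sequences came from GENCODE M21 on GRCm38, the build of the files but a different annotation release. CPM of 0.5 was added before logs for likeness. Members, lists and naming rules (all members, and up to 3 called genes per list with the largest changes at a mean of 10 CPM or more) were chosen with earlier results of these data known. The common UGT1A sequence is not reported here. Images were not used here.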

Additional observations from a re-analysis of the deposited data

Results flagged for a closer look

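For 19 member changes against 0 h, the test of the difference between portal-rich and other spots passed. Of 14144 genes, 14.6% passed it at 24 h, 14.2% at 36 h and 37.4% at 48 h. The differences (portal-rich minus other, log2) at 24 h were 0.21 for Sult1a1, -0.62 for Ugdh, 0.35 for Ugt2b1, 0.43 for Ugt2b36 and 0.23 for Ugt2b5. At 36 h they were 0.21 for Sult1a1, -0.25 for Ugdh, 0.77 for Ugt2b1, 0.44 for Ugt2b34, 0.26 for Ugt2b35, 0.39 for Ugt2b36 and 0.29 for Ugt2b5. At 48 h they were 0.33 for Sult1a1, 1.08 for Ugt1a6a, 1.02 for Ugt2b1, 0.71 for Ugt2b34, 0.51 for Ugt2b35, 0.66 for Ugt2b36 and 0.57 for Ugt2b5. Ugdh was the member with negative differences among these. With total-count scaling, under which the median gene lay at -0.15 to -0.25, Sult1a1 was called at none of the 3 times, Ugt2b1 not at 24 h, Ugt2b5 at neither 24 h nor 36 h, and Ugt2b35 not at 36 h, while Ugt2b34 (-0.32, adjusted p = 0.0021 by edgeR) and Ugt2b35 (-0.33, adjusted p = 0.0016) were called at 24 h and Ugdh (-0.42, adjusted p = 6.7e-05) at 48 h, all lower in portal-rich relative to other spots. No section at 48 h stood apart from the other 3 by Dixon's test for any member.
Leaving out single sections also ended the calls of Sult1a1, Ugt2b1 and Ugt2b5 at 24 h and of Sult1a1, Ugdh, Ugt2b35 and Ugt2b5 at 36 h, and of none of the 7 members at 48 h.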

How the results depend on the processing

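Over the log2 values of single members, 965 kept their direction and side of the threshold when one section was left out, 73 lost and 12 gained a call, and 30 changed sign, while under the other alternatives these numbers were 436, 25, 7 and 14. The values that changed sign were not called under either setting. With total-count scaling, which places the median gene 0.33 to 0.53 higher against 0 h than TMM does, Sult1a1 was at 0.17, 0.33 and 0.34 at 24 h, 36 h and 48 h and at 0.018 from 36 h to 48 h, Ugdh at 0.16 at 36 h, Ugt1a6a at 0.21 at 48 h, Ugt2b35 at 0.031 from 24 h to 36 h, and in portal-rich spots Ugt1a6a at 0.16 at 36 h and Ugt2b35 at 0.063 at 48 h. With portal-rich spots narrowed to 1 in 5 spots, the interaction was -0.043 for Ugt1a6a and -0.0051 for Ugt1a1 at 36 h and -0.84 for Ugt1a1 at 48 h. Ugdh was at -0.00396 at 24 h without an expression filter.

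The number of members with a called interaction at 36 h was 4 with total-count scaling, where 2490 of 14144 genes were called. With one section left out it was 3 to 5 at 24 h and 3 to 7 at 36 h. Of 14048 to 14496 genes tested, 905 to 2213 were then called at 24 h and 1045 to 2115 at 36 h. The number called in portal-rich spots at 48 h was 1 to 3 with one section left out, where 1080 to 3172 of all genes were called. Without 0 h section 2 it was 1, where 1174 of 13228 genes were called. From 24 h to 36 h, 2 members were called by DESeq2 (3201 of 20621 genes) and 0 with only the 2 groups fitted (1 of 13747 genes). With one section left out, 0 to 1 members were called, against 450 to 3198 of all genes. With the section letter as a replicate block 0 members were called (82 of 14717 genes). There Ugt2b36 was at 0.61 (adjusted p = 0.12 by edgeR) and Sult1a1 from 36 h to 48 h at 0.11. Whether a shared letter pairs sections could not be decided (correlation of same-letter deviations -0.25 to 0.29). With 2 sections at both 24 h and 36 h, deviations mirror each other, giving 0.29 for the same letter and -0.29 for different letters. Only the injured sections carry letters.

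With one section left out, the ranges of values that changed sign were -2.74 to 0.67 for the interaction of Ugt1a6a and -0.54 to 0.25 for that of Ugt1a1 at 24 h. In portal-rich spots they were -0.42 to 0.31 for Sult1a1 at 24 h, -0.42 to 0.18 for Ugt1a6a at 36 h, and -0.080 to 0.11 for Ugdh and -0.024 to 0.22 for Sult1a1 at 48 h. In whole sections at 24 h they were -0.13 to 0.19 for Ugdh and -0.57 to 0.17 for Sult1a1. From 24 h to 36 h they were -0.18 to 0.88 for Ugt1a6a, -0.64 to 0.58 for Ugt2b35 and -0.28 to 0.45 for Sult1a1. From 36 h to 48 h they were -0.10 to 0.57 for Ugt1a6a, -0.32 to 0.18 for Ugt2b34, -0.32 to 1.31 for Ugt2b1, -0.064 to 0.90 for Ugt2b35, -0.017 to 0.17 for Ugt2b36 and -0.18 to 0.063 for Sult1a1. The cause of these changes was not tested. With the section letter as a block, 82 of 14717 genes were called from 24 h to 36 h, against 2315 without it, and Sult1d1 (adjusted p = 0.049), Papss2 (0.052) and Sult2a8 (0.086) lay near the threshold. The tested UGT1A members rest on at most 107 assigned UMIs a section.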
